A study of Mus musculus with 4 samples.

Results

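The genes described here belong to the Notch pathway (Notch1, Notch2, Rbpj, Hes1, Dtx1 and Adam10) and to the lymphotoxin beta receptor pathway (Ltbr, Ltb, Relb and Nfkb2). They were chosen by name, and 10 of 10 were found among the 19938 genes that had a probe set with a single gene symbol. Dendritic cells (DCs) were grown from bone marrow of C57BL/6 mice for 8 days in Flt3 ligand (Flt3-L, 200 ng/ml), the cytokine that drives DC development. The marrow came from miR-142+/+ mice (wt) or from miR-142-/- mice (ko), which lack a microRNA of blood cells. B220-negative, CD11c-positive cells were sorted into CD4-equivalent DCs (CD172-positive, CD11b-positive, low in CD24) and CD8-equivalent DCs (CD172-negative, CD24-positive, low in CD11b). RNA of each of the 4 groups was hybridised to 1 Affymetrix array.

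The genotype miR-142-/- is given for the mice, and whether every cell carries the deletion is not stated. If so, the cultures of ko marrow differ from wt from the progenitor stage on. The labels give no age of the mice and no number of mice or cultures per array. They do not say whether marrow was pooled, or whether both subsets were sorted from 1 dish. Values are log2 expression summaries of a probe set (RMA), and a log2 difference of 1 is 2-fold. A floor of 5.68, the median of all single-symbol probe sets, separates values near background from the rest, and a gene was compared between 2 arrays when the higher value reached it. With 1 array a group, a difference between 2 arrays has no replicate check and no p-value.

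Notch receptors sit on the cell surface and are cut after they bind a ligand on a neighbouring cell. ADAM10 makes the outer cut and gamma-secretase the inner one, and the freed intracellular part joins the DNA-binding protein RBPJ to switch on genes such as Hes1 and Dtx1. In mouse spleen, Notch2 and Rbpj are needed for the CD8-negative DCs that express ESAM. The lymphotoxin beta receptor binds membrane lymphotoxin, a complex that contains the Ltb product, and signals through the kinase NIK. NIK activity leads to cutting of the p100 protein made from Nfkb2 into p52, which pairs with RELB. This branch is the non-canonical NF-kB pathway, and it supports the upkeep of splenic CD4-positive DCs.

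The deleted microRNA gives 2 mature strands. Their sequences (RefSeq, GRCm38.p6) are shown because they are what the ko cells lack, with the seed, bases 2 to 8, in capitals. They lie on the plus strand at chr11:87756867-87756887 and chr11:87756903-87756925.
mmu-miR-142a-5p: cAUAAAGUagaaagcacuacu
mmu-miR-142a-3p: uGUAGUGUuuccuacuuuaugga

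The labels could be checked against Mir142 and the genes of the sort markers. Mir142 read 10.37 and 9.87 in wt CD4- and CD8-equivalent DCs and 4.92 and 4.79 in the corresponding ko arrays, and the removed segment of the locus is not described in the labels. Of 10 markers of CD4-equivalent DCs (cDC2) that reached the floor, 9 were at least 2-fold lower in CD8-equivalent DCs in each genotype. Of the markers of CD8-equivalent DCs (cDC1), 8 of 11 were at least 2-fold higher there in wt and 4 of 10 in ko. Cadm1 of that list was lower there in ko (-1.71). Over all genes, 2.1% were that much higher and 3.14% lower in wt, and 3.39% and 3.9% in ko. The ko CD4-equivalent array stood apart. It carried 8 of 11 neutrophil markers, 5 of 10 cDC1 markers and 4 of 11 plasmacytoid DC markers at least 2-fold above the wt CD4-equivalent array. Of all genes compared, 1.39% were that much higher. The plasmacytoid marker Cd209d (-1.08) and the neutrophil markers Mmp8 (-0.69) and Csf3r (-0.74) went the other way. The summed linear level of the 13 measured neutrophil markers was 1069, 4235, 407 and 548.7 in wt CD4-, ko CD4-, wt CD8- and ko CD8-equivalent DCs. In sorted bulk RNA of this kind, fewer cells of a type and less RNA per cell cannot be told apart.

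The differences of the 10 genes lay mainly between the subsets and in the lymphotoxin branch. Relb and Nfkb2, the subunits of the non-canonical NF-kB dimer, were lower in the CD8-equivalent arrays whatever the genotype, and both passed the test. That test called 14.3% of all genes for subset and 0.166% for genotype, so all genes too differed mainly between the subsets. Ltb, the ligand subunit, was lowest without miR-142 within each subset, but its genotype difference did not pass the test over all genes. Notch2, Rbpj, Adam10 and Dtx1 varied by 0.20 to 0.32, end to end, on the log2 scale over the 4 arrays. Notch1 stood apart on the ko CD8-equivalent array.

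**Figure D1:**
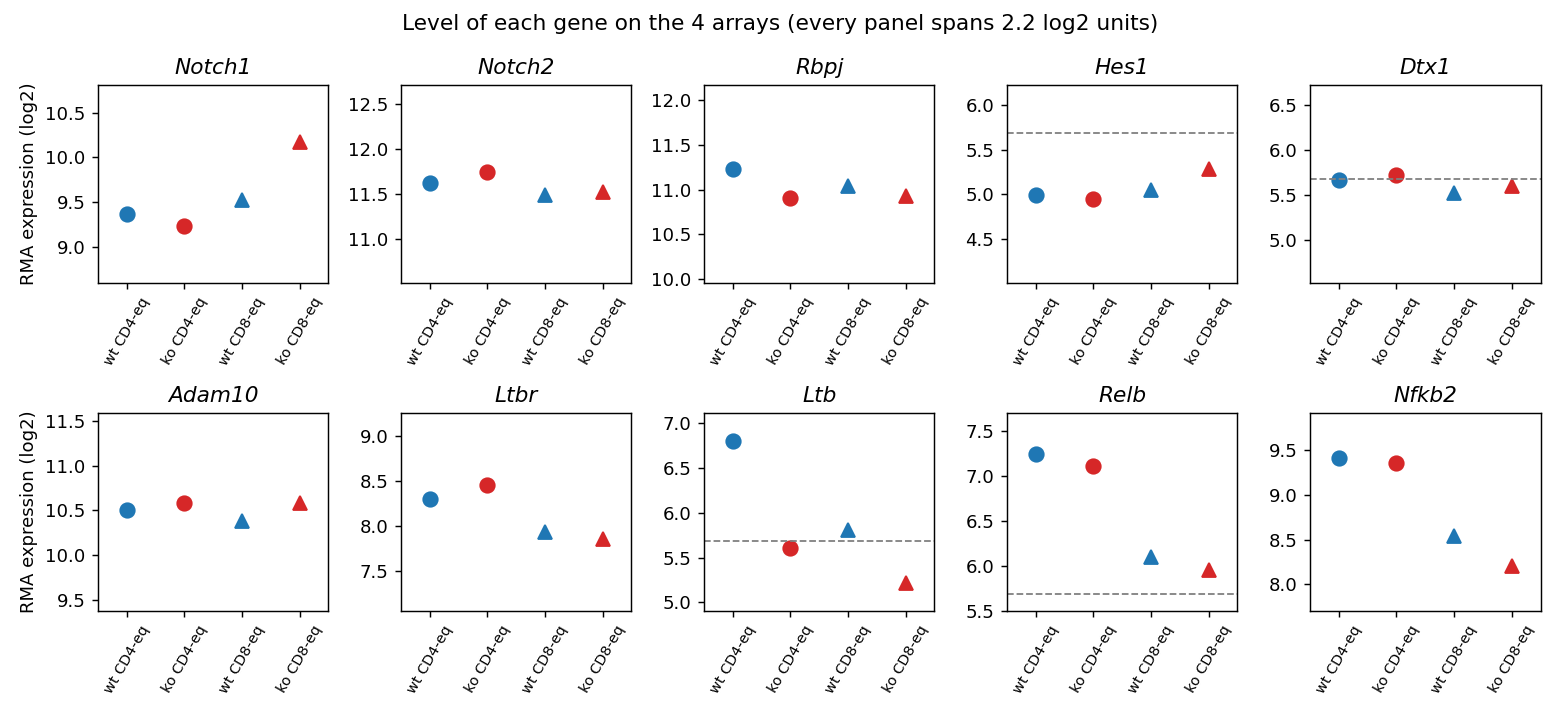
RMA expression (log2) of each of the 10 genes on the 4 arrays, with wt in blue, ko in red, CD4-equivalent DCs as circles and CD8-equivalent DCs as triangles; each point is 1 array, every panel spans the same number of log2 units, and the dashed line, where it falls in a panel, is the floor of 5.68. Relb and Nfkb2 are lower in CD8-equivalent DCs in each genotype, Ltb is highest in wt CD4-equivalent DCs, and Hes1 lies below the floor on all 4 arrays.

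Ltb encodes lymphotoxin beta, which anchors lymphotoxin alpha at the cell surface. Its probe set (10444752) read 6.79 in wt CD4-equivalent, 5.60 in ko CD4-equivalent, 5.80 in wt CD8-equivalent and 5.22 in ko CD8-equivalent DCs. The wt CD4-equivalent array was the high one, and both ko arrays lay below the floor. Ltb was 2.28-fold lower in ko among CD4-equivalent DCs (-1.19 on the log2 scale) and lower by 0.58 among CD8-equivalent DCs, just under 1.5-fold. Because the ko values lie near background, where RMA compresses differences, these folds may understate the true ratios. Ltb was the 1 of 9 compared genes at least 2-fold apart between the CD4-equivalent arrays, where 2.35% of all genes compared were that far apart (1.39% higher and 0.952% lower in ko). Between the CD8-equivalent arrays 0 of 8 were 2-fold apart, against a background of 2.15% (1.14% higher and 1% lower). At 1.5-fold the counts were 1 of 9 (background 7.7%) and 1 of 8 (background 8.09%), the latter Notch1. Ltb between the CD8-equivalent arrays passes 1.5-fold after cyclic loess or median centring (-0.62 with each).

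Effects common to both subsets, or to both genotypes, were tested with limma, with genotype and subset as additive terms. The only residual degree of freedom is the interaction between them, supplemented by 3.98 prior degrees of freedom estimated across genes, so each p-value rests on the spread among 4 arrays and may reflect technical variation alone. For Ltb the mean genotype difference was -0.89 ± 0.18 (SE), with a 95% interval from -1.35 to -0.43. Its unadjusted limma p was 0.0043 and its adjusted p 0.13 over 10239 genes. Limma with Benjamini-Hochberg adjustment called 0.166% of all genes for genotype (0.107% as higher without miR-142, 0.0586% as lower) and 0 of the 9 tested members. At an unadjusted p under 0.05 it was 1 member, Ltb, against 15.6% of all genes.

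The subset difference of Ltb, CD8- minus CD4-equivalent, was -0.99 in wt and -0.38 in ko, where both values lay below the floor and were not compared. Its mean subset difference of -0.69 ± 0.18 (SE) did not pass either (limma adjusted p = 0.065). Lymphotoxin beta is also made by T, B and NK cells, so their markers were read on the same arrays. The sort kept B220-negative cells, a gate meant to exclude B cells and plasmacytoid DCs, which carry B220. After it, 11 of 11 measured plasmacytoid markers still reached the floor on at least 1 array, as did 10239 of all 19938 genes. Whether plasmacytoid DCs passed the gate was not tested. Cd209d of that list was highest in wt CD4-equivalent DCs (7.90). Of 11 measured T and NK cell markers, 0 reached the floor on either CD4-equivalent array, and Cd3e read 4.72 in wt and 4.87 in ko. Of the B cell list, Cd79a, Ms4a1 and Pax5 lay between 4.03 and 4.83 on all arrays, and Vpreb1 and Vpreb3 were below the floor too. Ebf1 reached the floor in ko CD8-equivalent DCs alone (5.69), and Igll1 in wt (5.80) and ko (5.98) CD8-equivalent DCs. Cd79b, Cd22 and Blnk were above the floor on all 4 arrays. Cd22 was highest in wt CD4-equivalent DCs (9.67, against 9.11 in the next highest array). The 10 measured B cell markers summed to 2065 and 1761 in wt and ko CD4-equivalent DCs and to 1664 and 2017 in wt and ko CD8-equivalent DCs. The neutrophil, cDC1 and plasmacytoid markers that were higher on the ko CD4-equivalent array move with the lower Ltb value there. In the order wt CD4, ko CD4, wt CD8 and ko CD8, the cDC1 markers summed to 12440, 20140, 30730 and 29170, and the plasmacytoid markers to 5632, 10850, 13460 and 16210. The part of these markers and of the B cell markers in the Ltb difference was not tested. In CD8-equivalent DCs, where Ltb was lower in ko by 0.58, 1 of 13 neutrophil markers reached the floor on either array, Mpo, with 4.79 in wt and 7.55 in ko.

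Among the other listed ligands, Tnfsf14, which encodes LIGHT, a further ligand of the lymphotoxin beta receptor, read 7.62, 5.70, 5.87 and 5.12 in wt CD4-, ko CD4-, wt CD8- and ko CD8-equivalent DCs. As with Ltb, the wt CD4-equivalent array was highest and the ko CD8-equivalent array lowest. Its genotype differences were -1.92 and -0.74, with a mean of -1.33 ± 0.29 (SE, limma adjusted p = 0.14). Tnf, which acts through other receptors, read 9.42, 8.79, 8.16 and 8.08 in the same order and fell in CD8-equivalent DCs (mean subset difference -0.99 ± 0.17, limma adjusted p = 0.026). Lta, the partner of Ltb in the membrane complex, stayed between 4.15 and 4.28, below the floor.

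Ltbr encodes the lymphotoxin beta receptor. Its probe set (10548000) read 8.30 in wt CD4-equivalent, 8.45 in ko CD4-equivalent, 7.93 in wt CD8-equivalent and 7.85 in ko CD8-equivalent DCs. Both CD8-equivalent arrays were below both CD4-equivalent arrays, an order whose share over all genes was not counted. The mean subset difference was -0.48 ± 0.13 (SE; 95% interval -0.81 to -0.16) and did not pass (limma adjusted p = 0.066). The genotype difference was 0.16 between the CD4-equivalent arrays and -0.07 between the others, with a limma interval from -0.28 to 0.37 for the mean.

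Relb encodes the NF-kB subunit that carries the activation domain of the non-canonical dimer. Its probe set (10560575) read 7.25 in wt CD4-equivalent, 7.12 in ko CD4-equivalent, 6.10 in wt CD8-equivalent and 5.95 in ko CD8-equivalent DCs. The genotypes lay close together within each subset. In CD8-equivalent DCs Relb was lower by 2.22-fold (wt) and 2.25-fold (ko), with a mean difference of -1.16 ± 0.12 (SE; limma adjusted p = 0.0098). Between the genotypes it differed by -0.13 and -0.15, and the 95% interval of the mean ran from -0.44 to 0.16.

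Nfkb2 encodes p100, the precursor of p52. Its probe set (10463599) read 9.41 and 9.35 in wt and ko CD4-equivalent DCs, and 8.54 and 8.20 in wt and ko CD8-equivalent DCs. The ko CD8-equivalent array was lowest. In CD8-equivalent DCs Nfkb2 was lower by 1.83-fold (wt) and 2.22-fold (ko), with a mean difference of -1.01 ± 0.13 (SE; limma adjusted p = 0.016). Its genotype differences were -0.06 and -0.33, and the first changes sign, to 0.05, after cyclic loess. The interval of the mean genotype difference was -0.53 to 0.14.

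In the test between subsets, limma called 2 of 9 tested members, both lower in CD8-equivalent DCs, where it called 14.3% of all genes (7.98% higher and 6.35% lower). At an unadjusted p under 0.05 it was 5 of 9 members, against 33.3% of all genes. At 2-fold, 1 of 8 compared members (Relb) differed between the wt arrays, against 5.24% of all genes (2.1% higher and 3.14% lower). Between the ko arrays 2 of 8 did (Relb and Nfkb2), against 7.29% (3.39% higher and 3.9% lower). At 1.5-fold the counts were 3 of 8 in wt (background 15.2%) and 4 of 8 in ko (background 20.2%). The median subset difference over the 9 tested members was -0.18, and over all 10239 genes it was 0.08. After cyclic loess the median of all genes compared between the ko arrays moved from 0.11 to 0.01. Under that scaling the share of higher genes among those 2-fold apart between the ko arrays was 34.6%, against 46.5% as deposited, and Relb and Nfkb2 were called lower under either.

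The ko CD4-equivalent array takes part in the subset test. Without it, an alternative chosen after seeing the data, only the wt pair remains, with -1.15 for Relb and -0.87 for Nfkb2 and no test. The markers of macrophages moved with the same contrast, with 4 of 10 at least 2-fold lower in CD8-equivalent DCs of wt and 9 of 10 in ko. Their summed linear level was 27350 and 25720 in wt and ko CD4-equivalent DCs and 17060 and 10520 in wt and ko CD8-equivalent DCs. The part of these markers, and of the cDC2 markers that the sort itself separates, in the difference of Relb and Nfkb2 was not tested.

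**Figure D2:**
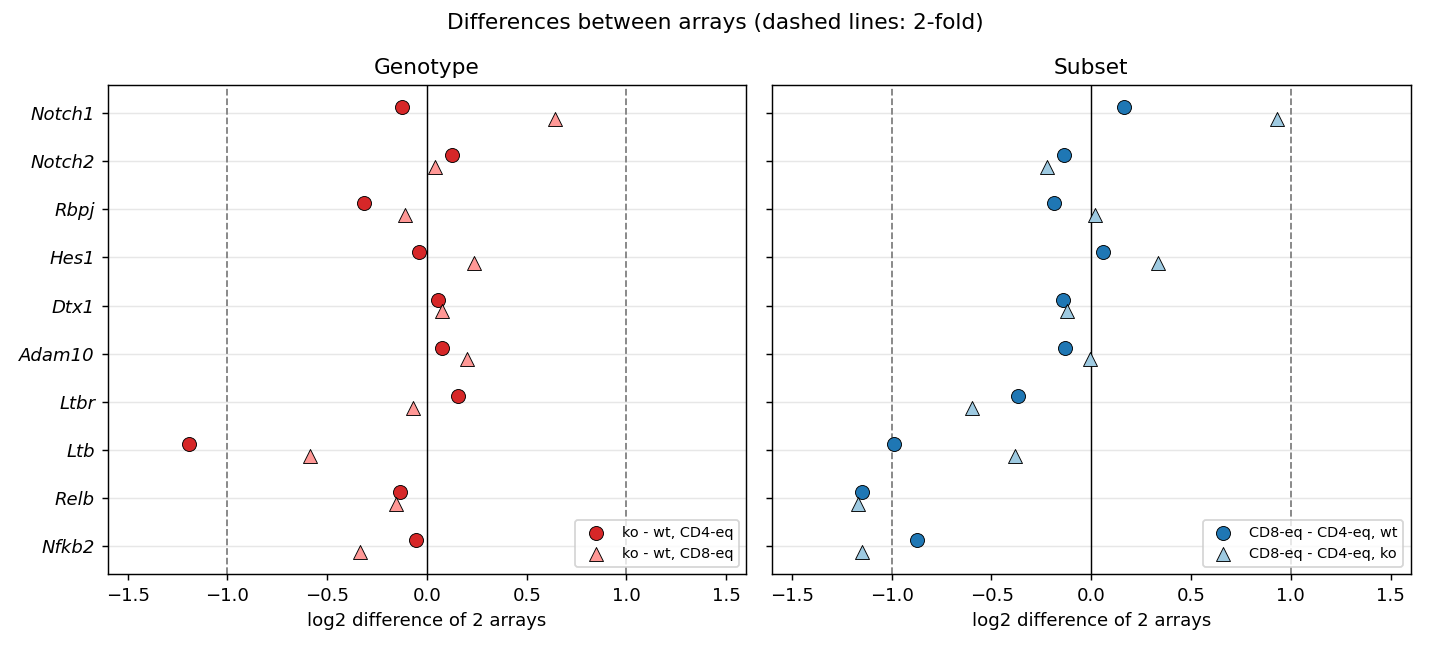
Log2 difference of 2 arrays for each of the 10 genes, with ko minus wt on the left (circles CD4-equivalent, triangles CD8-equivalent DCs) and CD8- minus CD4-equivalent on the right (circles wt, triangles ko); dashed lines mark 2-fold in either direction. Ltb in CD4-equivalent DCs is the only genotype difference past 2-fold (-1.19), and Relb (-1.15 and -1.17) and Nfkb2 in ko (-1.15) are the subset differences past it.

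Bases before the annotated starts of Nfkb2 and Ltb are shown because a gene that differed between the subsets and the ligand gene both hold matches to the NF-kB consensus there. They come from RefSeq (GRCm38.p6), run along the plus strand and cover 250 bases up to the start, at chr19:46304487-46304736 for Nfkb2 and chr17:35194257-35194506 for Ltb. The RefSeq table gives 3 starts for Nfkb2 in these data, and the sequence belongs to the first. Capitals mark matches to the consensus on either strand.
Nfkb2: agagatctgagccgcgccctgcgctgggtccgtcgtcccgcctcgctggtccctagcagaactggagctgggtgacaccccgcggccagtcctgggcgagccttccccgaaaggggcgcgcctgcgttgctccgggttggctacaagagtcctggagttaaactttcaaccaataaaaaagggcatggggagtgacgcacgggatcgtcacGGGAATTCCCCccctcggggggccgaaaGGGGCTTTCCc
Ltb: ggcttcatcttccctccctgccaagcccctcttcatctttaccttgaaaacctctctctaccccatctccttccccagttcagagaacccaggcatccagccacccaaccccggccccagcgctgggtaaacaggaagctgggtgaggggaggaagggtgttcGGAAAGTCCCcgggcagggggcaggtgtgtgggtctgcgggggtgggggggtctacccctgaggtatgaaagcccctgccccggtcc

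Counted from the start, the palindromic match GGGAATTCCC begins at position -39 of the Nfkb2 window and overlaps a further match at -38. The other match, GGGGCTTTCC, begins at -11. The Ltb match, GGAAAGTCCC, begins at -87 and fits the consensus on the opposite strand. Of 32851 windows of this length in the table, 3.9% held the consensus on either strand. Windows were listed for 8 of the 10 genes (not Hes1 and Relb). The consensus was found for 3 of these 8 (Nfkb2, Ltb and Notch2). By window it was 5 of 11, of which Nfkb2 holds 3. The RBPJ core TGGGAA, searched on both strands, was in 21.6% of all windows and for 1 of the 8 genes, Rbpj. Both background shares are over windows, and shares over genes were not counted. A match describes letters in the window, and binding was not measured.

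Around Relb and Nfkb2, the other genes of the lymphotoxin and NF-kB lists were read by role. Of 36 measured genes besides the members, 28 reached the floor, and limma called 8 lower and 1 higher in CD8-equivalent DCs, where it called 6.35% of all genes as lower and 7.98% as higher. The median subset difference of the 28 was -0.40, beside 0.08 for all genes. The count of lower calls ran from 7 without the floor to 14 with a trended and robust prior.

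Among receptors that feed the pathway, Cd40, the receptor for T cell help, fell most. It read 8.58 and 9.12 in wt and ko CD4-equivalent DCs and 6.77 and 6.73 in wt and ko CD8-equivalent DCs, a mean difference of -2.10 ± 0.17 (SE; limma adjusted p = 0.0069). Tnfrsf11a, which encodes the RANK receptor, fell by 0.95 (limma adjusted p = 0.014). The TNF receptor genes Tnfrsf1b and Tnfrsf1a fell by 1.44 and 0.65 (limma adjusted p = 0.0079 and 0.031). Tnfrsf14, which encodes the HVEM receptor for LIGHT, went the other way, with 9.13 and 9.36 in wt and ko CD4-equivalent and 9.66 and 9.78 in CD8-equivalent DCs, and did not pass (limma adjusted p = 0.060).

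Within the core of the non-canonical branch, Birc3, an inhibitor of apoptosis protein that helps degrade NIK, fell by 0.65 (limma adjusted p = 0.030). Otud7b, a deubiquitinase that protects TRAF3, rose by 0.71 (adjusted p = 0.036), though it reached the floor only in ko CD8-equivalent DCs, with 6.17. Map3k14, which encodes NIK itself, read 8.32, 8.02, 7.63 and 7.63 in wt CD4-, ko CD4-, wt CD8- and ko CD8-equivalent DCs, and its subset difference did not pass (limma adjusted p = 0.060). Values for Chuk and Traf3 were not analysed here. Of 9 measured genes of the canonical branch 1 was called, Nfkbie, an inhibitor of NF-kB, which fell by 0.81 (limma adjusted p = 0.026). Rela differed by -0.27 in each genotype and Rel by -0.45 and -0.37.

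Among genes listed as induced through the lymphotoxin receptor or NF-kB, 3 of 9 measured reached the floor (Ccl22, Icam1 and Cxcl13). Ccl22, a chemokine that draws CCR4-positive T cells, read 8.17 and 7.92 in wt and ko CD4-equivalent DCs and 5.15 and 4.67, below the floor, in wt and ko CD8-equivalent DCs. It fell with the subset (limma adjusted p = 0.0020), and the fitted size of -3.13 rests on values below the floor in CD8-equivalent DCs, so the true ratio may be larger. The adhesion molecule gene Icam1 differed by 0.40 in wt and 0.09 in ko and was not called. Cxcl13 read 5.51 to 5.74. The chemokine gene Ccl17 read 4.48 to 4.69, and it, Ccl19, Tnfsf13b, Vcam1, Madcam1 and Cxcl12 stayed below the floor on all 4 arrays. For genotype, limma called 0 of the 28 genes (0.166% of all genes), and 3 were higher and 4 lower at an unadjusted p under 0.05, which 15.6% of all genes reached.

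**Figure D3:**
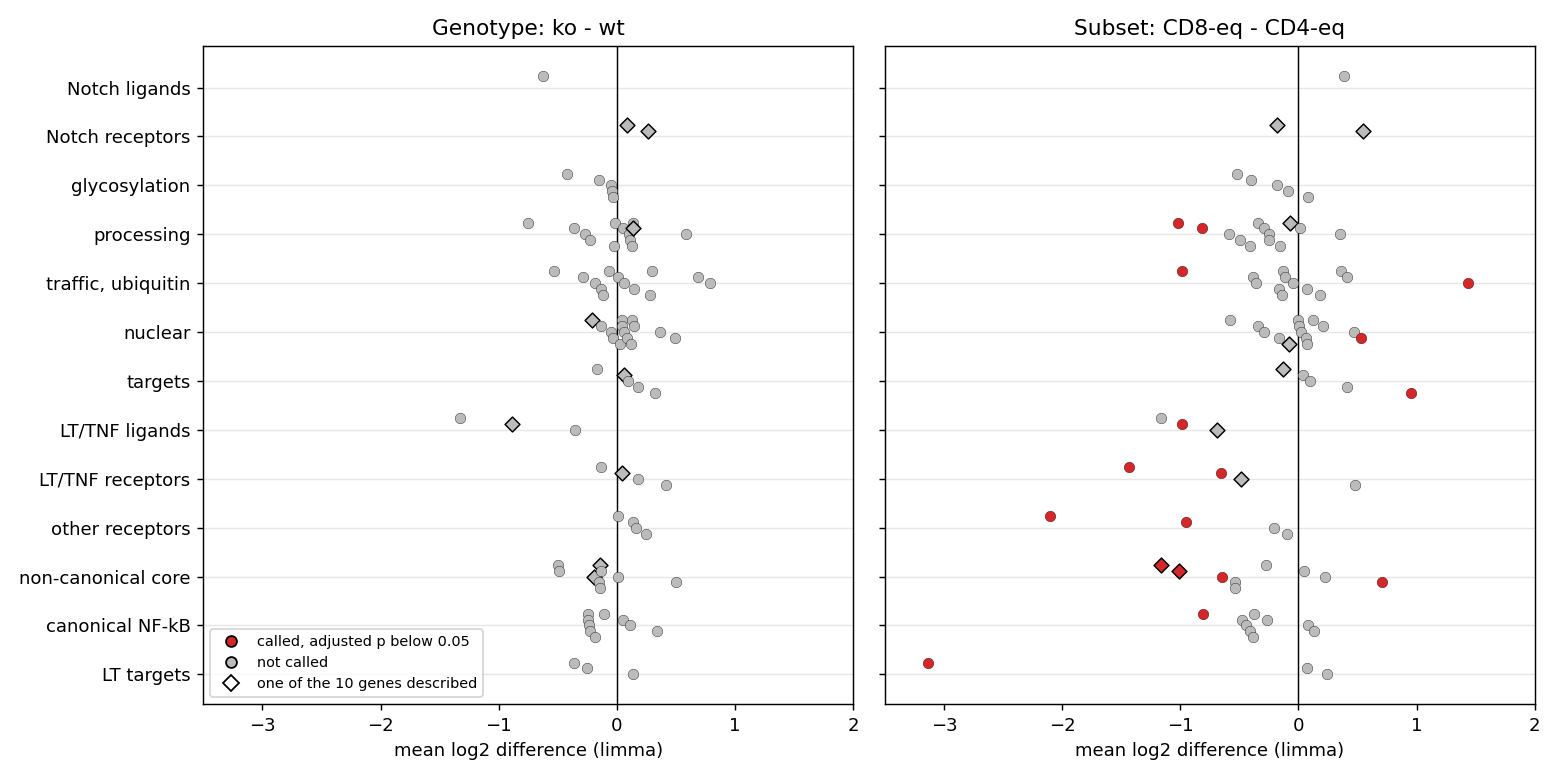
Mean log2 difference from limma for each tested gene of the pathway lists, grouped by role, with genotype (ko minus wt) on the left and subset (CD8- minus CD4-equivalent) on the right; red points passed an adjusted p of 0.05 and diamonds are the genes described throughout, with small vertical offsets only to separate points. None of these genes is red for genotype, while in the subset panel the lymphotoxin and NF-kB groups hold 10 lower and 1 higher called genes and the Notch groups 3 lower and 3 higher.

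On the Notch side, Notch2 is the receptor that splenic DCs depend on. Its probe set (10494595) read 11.62 and 11.74 in wt and ko CD4-equivalent DCs and 11.48 and 11.52 in wt and ko CD8-equivalent DCs. The genotype difference was 0.13 and 0.04 (95% interval of the limma mean -0.22 to 0.39), and the subset difference -0.13 and -0.22 (interval -0.48 to 0.12). A 2-fold change common to both subsets or both genotypes lies outside these intervals. Without replicate arrays, their width may reflect technical variation alone, so they cannot exclude such a change in further mice or cultures.

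Notch1, the receptor best known from T cell commitment, varied more. Its probe set (10481056) read 9.36 and 9.24 in wt and ko CD4-equivalent DCs, 9.53 in wt CD8-equivalent and 10.17 in ko CD8-equivalent DCs. The last array was the high one, 1.56-fold above wt of the same subset and 1.91-fold above ko CD4-equivalent DCs. Ko minus wt was -0.12 between the CD4-equivalent arrays and 0.64 between the CD8-equivalent ones. The gap of 0.77 between them was not tested, because the additive model uses the interaction as its residual. Neither effect passed in limma (genotype mean 0.26 ± 0.21, adjusted p = 0.61; subset mean 0.55 ± 0.21, adjusted p = 0.14). Notch3 and Notch4 stayed below the floor on all arrays.

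Progenitor markers were read beside the high Notch1 value. Among CD8-equivalent DCs 2 of 7 such markers were higher in ko by 2-fold or more, Hoxa9 (by 3.02) and Meis1 (by 1.70), while ko minus wt was -0.60 for Kit and -0.09 for Cd34. The median of the 7 was 0.935, just under 2-fold, beside 0.221 among CD4-equivalent DCs. Among CD4-equivalent DCs, where Notch1 was not higher, 2 of 7 were, Hoxa9 (by 3.46) and Myb (by 1.11). Their summed linear level was 4739, 5016, 5941 and 8256 in wt CD4-, ko CD4-, wt CD8- and ko CD8-equivalent DCs, highest on the array with the highest Notch1. Among T and NK cell markers, Nkg7 (8.09) and Cd2 (6.61) reached the floor on that array, and Nkg7 also in wt CD8-equivalent DCs (7.28), while Cd3e (4.72) and Cd3g (4.26) did not. The 11 measured T and NK cell markers summed to 285.3, 302.3, 414.4 and 600 on a linear scale, in the order given for the progenitor markers. The part of these markers in the Notch1 value was not tested.

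Adam10 encodes the protease that makes the ligand-induced outer cut. Its probe set (10586844) read 10.51, 10.59, 10.38 and 10.58 in wt CD4-, ko CD4-, wt CD8- and ko CD8-equivalent DCs. The values spanned 0.21, with limma intervals of -0.17 to 0.45 for genotype and -0.38 to 0.24 for subset. Rbpj encodes the DNA-binding partner of the Notch intracellular part. Its probe set (10521913) read 11.22, 10.91, 11.04 and 10.93 in the same order, so wt CD4-equivalent was the highest array. Ko minus wt for Rbpj was -0.32 (CD4-equivalent) and -0.11 (CD8-equivalent), which did not pass (limma adjusted p = 0.48; interval -0.54 to 0.11). Another probe set named for Rbpj (10521911), matched to a single transcript record, read 4.40 to 4.53 and was not used.

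The direct Notch target genes Hes1 and Dtx1 were at or near background. Hes1, a transcriptional repressor, read 4.99, 4.95, 5.05 and 5.29 in wt CD4-, ko CD4-, wt CD8- and ko CD8-equivalent DCs (probe set 10434925) and was not tested. Dtx1, a ubiquitin ligase of the Deltex family, read 5.67, 5.72, 5.53 and 5.60 (probe set 10533182) and reached the floor on the ko CD4-equivalent array alone. For Dtx1 the limma intervals were -0.24 to 0.36 for genotype and -0.43 to 0.17 for subset, at levels near background. Of 10 other listed Notch targets measured, 6 (Hes7, Hey1, Hey2, Heyl, Nrarp and Ptcra) were also below the floor on all 4 arrays. Hes5 (5.92 to 6.11), Myc (10.78 to 11.37) and Ccnd1 (11.95 to 12.48) reached the floor on all 4 and were not called in limma. Hes6, a Hes family member that opposes Hes1, rose by 0.95 in CD8-equivalent DCs (limma adjusted p = 0.014). It read 8.24 and 8.42 in wt and ko CD4-equivalent and 9.19 and 9.37 in wt and ko CD8-equivalent DCs. Whether Hes6 or the other listed genes respond to Notch in these cells was not tested, so the rise is not a reading of Notch activity.

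Beyond the members, 62 genes of the Notch lists were measured and 48 reached the floor on an array. For the subset, limma called 3 higher and 3 lower, against the background of 14.3%, and the median difference was -0.10. Dtx4, another Deltex ligase, read 6.39 and 7.50 in wt and ko CD4-equivalent DCs and 8.25 and 8.50 in wt and ko CD8-equivalent DCs. It rose by 1.43 in CD8-equivalent DCs (limma adjusted p = 0.023) and was 1.11 higher in ko than in wt among CD4-equivalent DCs. Hdac1, a histone deacetylase of repressor complexes, rose by 0.53 (adjusted p = 0.049), a call that is lost after cyclic loess, after median centring or with the mean of a gene's probe sets (adjusted p = 0.0585, 0.058 and 0.0502).

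The 3 genes that fell in CD8-equivalent DCs were Aph1b and Aph1c, which encode subunits of gamma-secretase, and Neurl3, a ubiquitin ligase of the Neuralized family. Aph1b fell by 1.02 and Aph1c by 0.82 (limma adjusted p = 0.015 and 0.036). Their sequences are near-identical, so probes could read either gene and the separate values are uncertain. Neurl3 fell by 0.99 (limma adjusted p = 0.015). The gamma-secretase genes Ncstn and Psenen were not called, with Psenen between 13.02 and 13.11. Of the genes that act on the sugars of Notch receptors, 0 of 5 were called for subset (2 lower at an unadjusted p under 0.05 in limma), and the Fringe gene Lfng read 10.57, 10.30, 10.20 and 9.63 in wt CD4-, ko CD4-, wt CD8- and ko CD8-equivalent DCs. The Notch ligand genes Dll1, Dll3, Dll4 and Jag1 lay below the floor everywhere, and Jag2 reached it in wt CD8-equivalent DCs alone, with 5.69.

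For genotype, 0 of the 48 other Notch genes passed in limma, while 4 were higher and 5 lower at an unadjusted p under 0.05, a share near the 15.6% of all genes. The gene nearest the threshold was Neurl1b, a Neuralized ligase that acts on Notch ligands, which was chosen after its values were seen. It read 9.14 and 10.03 in wt and ko CD4-equivalent DCs and 9.43 and 10.11 in wt and ko CD8-equivalent DCs. Its mean difference was 0.78 ± 0.13 (SE, limma adjusted p = 0.085).

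A list drawn up around Notch2 and splenic CD8-negative DCs had 6 measured genes. Neither the dependence of these genes on Notch2 nor its direction was tested here, so the list does not stand for Notch2 activity. Of the 4 at the floor, limma called 0 for genotype (1 higher and 1 lower at an unadjusted p under 0.05). It called 2 for subset, both lower in CD8-equivalent DCs. The shares of all genes were 0.166% and, unadjusted, 15.6% for genotype, and 14.3% for subset. Esam and Cd4, which define that splenic type, stayed below the floor on all 4 arrays. Clec4a4, an inhibitory lectin, read 8.86, 7.06, 5.77 and 5.52 in wt CD4-, ko CD4-, wt CD8- and ko CD8-equivalent DCs. It fell with the subset (mean -2.31 ± 0.37, limma adjusted p = 0.023), and its genotype differences of -1.80 (CD4-equivalent) and -0.25 (CD8-equivalent) did not pass (adjusted p = 0.29). Cx3cr1, the fractalkine receptor gene, fell with the subset too (mean -1.50 ± 0.12, limma adjusted p = 0.0069) and was higher in ko by 0.71 and 0.50 (adjusted p = 0.13). Cd7 differed by 0.19 and -0.36, and Cd300a by 0.08 and -0.23.

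Profiles over the 4 arrays were compared for the 3 members whose values spanned at least 1 log2 unit. Likeness was measured as the distance between values centred on each gene's mean, over 10238 other genes that reached the floor. Nearest to Ltb were AB124611 (distance 0.17), Pla2g7 (0.19), which encodes a plasma phospholipase, and the inflammasome gene Nlrp1b (0.19). Nlrp1b read 6.78, 5.66, 5.62 and 5.26 in wt CD4-, ko CD4-, wt CD8- and ko CD8-equivalent DCs, high in wt CD4-equivalent DCs as Ltb was. Nearest to Relb were Epb41l3 (0.09), Fbrsl1 (0.11) and Chn2 (0.13). Nearest to Nfkb2 were the plexin gene Plxna1 (0.018), the kinase gene Map3k8 (0.039) and Cd300lg (0.052). Map3k8, whose protein binds the p105 NF-kB precursor, read 9.22 and 9.11 in wt and ko CD4-equivalent DCs and 8.34 and 7.99 in wt and ko CD8-equivalent DCs. With 4 arrays, these distances are a description.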

How the data were processed

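Expression was measured on 4 arrays. The authors deposited log2 RMA values, 1 for each probe set and array, and RMA and Partek are named in the submitters' processing notes. The log base was inferred from the values (3.52 to 14.3), and tool versions and any later steps are not given in the sources used for it. Of 35399 probe sets, 21789 carried 1 symbol in the platform annotation, 1621 several and 11989 none. The probe set with the highest mean stood for each gene. The number of arrays limits the precision.

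Differences of 2 arrays were counted at 2-fold. The 10239 genes at or above the floor on at least 1 array were fitted with limma 3.58.1 in R 4.3.3 (lmFit and eBayes, genotype plus subset, two-sided, Benjamini-Hochberg adjustment over all genes, threshold 0.05). The fit was tested on simulated data. Alternatives were cyclic loess, median centring, no floor, a floor at the 60th percentile (7.22), the mean of a gene's probe sets, 1.5-fold and a trended, robust prior. Named were the 10 genes, listed pathway genes 2-fold apart or called, role-group examples, and the 3 nearest profiles. Further genes were named for their role after their values were seen. Members and lists were chosen with earlier results of these data known. All 10 members matched RefSeq by gene ID. No replicate exists in any group.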

Additional observations from a re-analysis of the deposited data

Results flagged for a closer look

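The genotype difference of Notch1 had opposite signs in the subsets. Ko minus wt was -0.12 for CD4-equivalent DCs and 0.64 for CD8-equivalent DCs, a gap of 0.77 on the log2 scale, which was not tested because each group holds 1 array. The first value is small, and was -0.03 after cyclic loess.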

How the results depend on the processing

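With 1 array a group, no value has a spread within its group, and values near or below the floor of 5.68 (Ltb in ko, Dtx1, Hes1) carry little signal over background. Ltb in wt CD8-equivalent DCs (5.80) and Relb in wt and ko CD8-equivalent DCs (6.10 and 5.95) lie not far above that floor. The counts of members called by limma, 2 for subset and 0 for genotype, were the same under each of the 6 alternatives run for them. The counts of members 2-fold apart were the same after cyclic loess, median centring, the mean of probe sets and without a floor. A floor at the 60th percentile (7.22) left 0 members 2-fold apart between the CD4-equivalent arrays and 1 between the ko arrays, because Ltb and Relb in ko then lie under it. At 1.5-fold the counts were 1 between the CD8-equivalent arrays (Notch1), 3 between the wt arrays and 4 between the ko arrays. The adjusted p of Ltb for genotype ranged from 0.078 to 0.23 over the alternatives in which it was tested. Over all genes, limma called 17 for genotype, and 8 after median centring, 3 without a floor, 126 with the higher floor and 307 with a trended and robust prior. For subset it called 1467, and 946 without a floor. Calls among the other Notch genes for subset ran from 1 higher and 2 lower without a floor to 5 higher and 6 lower with that prior. With it, Neurl1b and Aph1c were called for genotype (adjusted p = 0.020 and 0.041). No paired analysis was possible because the labels carry no replicate numbers and each group holds 1 array; the additive fit compares genotypes within subsets and subsets within genotypes.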
